A study of Taeniopygia guttata with 46 samples.

Results

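The testes of 7 adult male zebra finches (Taeniopygia guttata) held for 5 h in air at 27 °C were set against those of 8 males held for 5 h at 35 °C, across all measured genes. Members were chosen by title, as the birds labelled testis at either temperature, and make up 15 of the 46 libraries of the series. The labels place 27 °C below the thermoneutral zone and 35 °C inside it, that zone being the air temperatures at which a resting bird need not spend extra energy on its body temperature. The labels name no genotype, drug or surgery for any bird. The remaining libraries are 7 testes from birds at 43 °C, above the zone, and 24 posterior telencephalons, a forebrain region, from 8 birds at each temperature. The 43 °C testes and the telencephalons enter below where they show how the cool testes differ.

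The avian testis lies inside the body cavity, so its germ cells develop at core body temperature. Most of its RNA comes from germ cells at successive stages, from spermatogonia through meiotic spermatocytes to spermatids, with a minority from the Sertoli cells that nurse them and the Leydig cells that make testosterone. A bird below its thermoneutral zone raises heat production, chiefly by shivering, to hold its core temperature. In vertebrate cells, chilling itself is known to raise a few RNA-binding proteins, and heating the chaperones of the heat shock family. The tables name genes by Ensembl identifier alone and 0 of the 18618 identifiers were found in the gene table used here, so no symbol, function or cell type is attached to any gene below, and marker genes of the testis were not checked. A change in a transcript of whole testis can come from fewer cells of a type or from less RNA per cell, which cannot be told apart in these libraries.

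Total counts per library ran from 14944822 to 22029503 at 27 °C and from 14232073 to 25440619 at 35 °C, and the 10 most counted genes held 6.54 to 8.06% of them at 27 °C and 7.04 to 7.66% at 35 °C. The library of bird T142 at 27 °C carries brain as its tissue characteristic, whereas both its title and its source name read testis. Over 12523 genes measured in both tissues its log2 profile correlated at 0.981 with the mean 43 °C testis and at 0.549 with the mean 43 °C telencephalon, values inside the ranges of the 15 birds (0.977 to 0.988 and 0.530 to 0.555). It is kept as testis, and several of the results that lean on it, though not all, are also given without it. The closest pair of libraries within either group differed by a chi-square of 29.2 per degree of freedom, so no library was a copy of another. Nothing in the labels says how the birds were housed in groups, and the p-values measure the spread between these birds.

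No gene passed the test of a mean shift between 27 and 35 °C. Counts were scaled by TMM, a library size correction, and tested by edgeR's quasi-likelihood test over 14149 genes, with genes called at a Benjamini-Hochberg adjusted p under 0.05. The background share called was 0%, and the smallest adjusted p was 0.961. An unadjusted p below 0.05 was reached by 612 genes (4.33% of those tested), 348 with the higher mean at 27 °C (2.46%) and 264 with the lower (1.87%), against the 5% that such a limit gives without any difference. DESeq2, run without a filter on low counts, called 0 of 17508 genes as well, with 782 at an unadjusted p under 0.05. Over the 14149 genes limma voom with quality weights called 0, with 744 at an unadjusted p under 0.05. The DESeq2 count is below 5% of its genes and the voom count slightly above. With 1 testis library left out, the edgeR count ran from 485 to 1062, from below to above 5% of the genes tested. The highest was without T155, and 0 genes were called in each of these fits.

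The differences in mean were small in size. The median absolute log2 fold change was 0.12 over all tested genes and 0.10 over the 8454 genes averaging 10 CPM (counts scaled to a common library size) or more. Of those 8454, 83.2% had a 95% interval inside a 1.5-fold change in either direction, and 97.6% inside a 2-fold change. A fitted change past 1.5-fold was seen in 250 genes on the higher side and 325 on the lower. In the genes of at least 10 CPM there were 32 and 35 such genes. For most well-counted transcripts, then, a 2-fold mean shift lay outside the interval.

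Among genes of at least 10 CPM, the 2 of smallest p on the higher side and the 2 on the lower side show what the strongest candidates look like. ENSTGUG00000008036 ran from 45.6 to 62.8 CPM at 27 °C (median 50.8) and from 26.5 to 44.6 CPM at 35 °C (median 38.2). Every one of the 7 cool birds lay above all 8 birds at 35 °C. The cool birds averaged 53.1 CPM (SD 6.32, n = 7) against 37.3 CPM (SD 6.60, n = 8) at 35 °C, and the log2 fold change was 0.51 (SE 0.12, edgeR adjusted p = 0.961). ENSTGUG00000012863 ran from 8.82 to 20.5 CPM at 27 °C (median 12.2) and from 7.66 to 9.85 CPM at 35 °C (median 8.94). Here the groups overlapped through bird T148, and the cool birds were spread far more widely, with SDs of 3.74 CPM at 27 °C and 0.812 CPM at 35 °C. Its log2 fold change was 0.60 ± 0.15 (SE).

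On the lower side, ENSTGUG00000009484 ran from 19.02 to 29.7 CPM at 27 °C (median 25.1) and from 30.8 to 90.0 CPM at 35 °C (median 42.7). The groups did not overlap, although the highest cool bird, T155, came close to the lowest bird at 35 °C, T157. Its log2 fold change was -0.91 ± 0.22 (SE). ENSTGUG00000003541 ran from 40.6 to 78.9 CPM at 27 °C (median 58.1) and from 46.0004 to 155.6 CPM at 35 °C (median 109.8), with a log2 fold change of -0.84 ± 0.20 (SE). Both were at least 4-fold higher in testis than in telencephalon in the 43 °C birds, which marks them as testis-enriched. In both, the birds at 35 °C were the more spread ones, with SDs of 3.70 and 13.0 CPM at 27 °C and of 20.9 and 36.7 CPM at 35 °C. All 4 genes had an edgeR adjusted p of 0.961.

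At 43 °C the means of these genes were 45.7 ± 7.96, 9.11 ± 1.70, 38.1 ± 11.7 and 82.0 ± 16.6 CPM (SD, n = 7), for ENSTGUG00000008036, ENSTGUG00000012863, ENSTGUG00000009484 and ENSTGUG00000003541 in that order. In the telencephalon, their log2 fold changes at 27 against 35 °C were -0.14 ± 0.081, 0.23 ± 0.12, -0.07 ± 0.12 and -0.13 ± 0.10 (SE), each with an edgeR adjusted p of 0.9999. The telencephalon values come from the same birds and are no independent repeat.

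In 4 genes, or 0.0283% of those tested, the 7 cool birds all lay on one side of the 8 birds at 35 °C, 2 above (0.0141%) and 2 below (0.0141%). A share this small is no result about these genes, and they are described as values. Besides ENSTGUG00000008036 and ENSTGUG00000009484 these were ENSTGUG00000001411 and ENSTGUG00000007807, which are named here after their values were seen. ENSTGUG00000001411 stood at 183.0 to 206.7 CPM at 27 °C (median 197.5) and at 85.4 to 181.3 CPM at 35 °C (median 149.6). This gene was tight in the cool testes, with an SD of 9.77 CPM at 27 °C and of 27.9 CPM at 35 °C, and bird T157 was the lowest of the warm ones. ENSTGUG00000007807, a less abundant transcript, stood at 2.64 to 5.84 CPM at 27 °C (median 3.18) and at 6.20 to 13.3 CPM at 35 °C (median 7.75). It had the smallest p of all tested genes, 0.000144, and an edgeR adjusted p of 0.961.

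**Figure D1:**
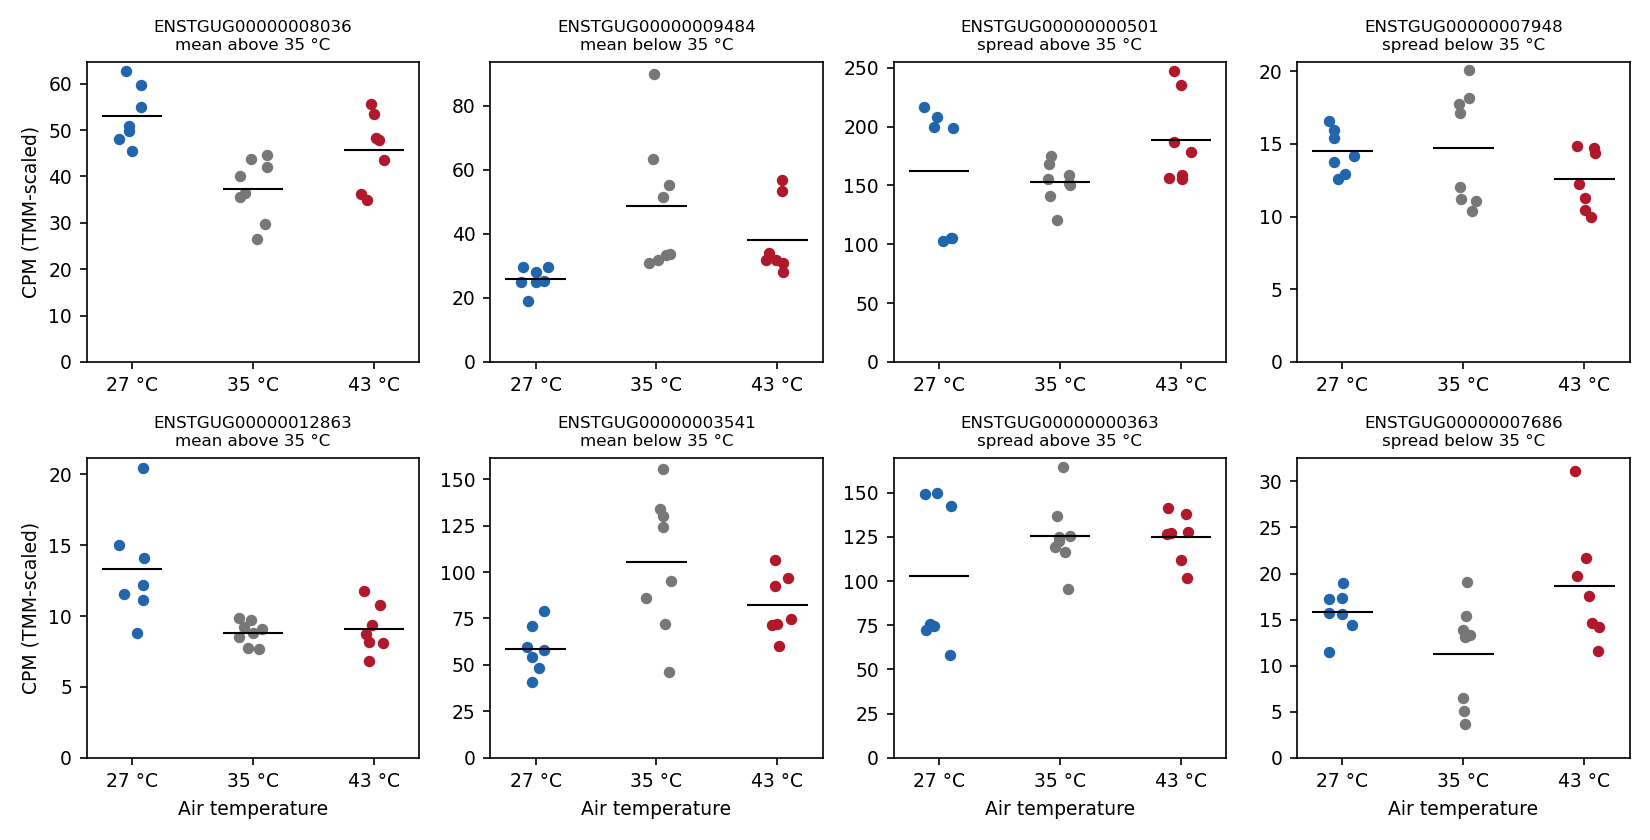
Level in CPM (TMM-scaled, linear axes from 0) of 8 testis genes in each bird at 27 °C (blue, n = 7), 35 °C (grey, n = 8) and 43 °C (red, n = 7), with black lines for group means. The left 4 panels hold, among genes of at least 10 CPM, the 2 of smallest p for a mean shift in each direction, where ENSTGUG00000008036 sits at 45.6 to 62.8 CPM at 27 °C and 26.5 to 44.6 CPM at 35 °C. The right 4 hold the same choice for a difference in spread, where ENSTGUG00000000501 splits into a low and a high set of birds at 27 °C.

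The most abundant transcripts did not separate the groups. ENSTGUG00000012067, the most counted gene, averaged 12720 CPM (SD 2356, n = 7) in the cool birds against 12643 CPM (SD 1979, n = 8) at 35 °C, and its log2 fold change was 0.0088 (SE 0.13, edgeR adjusted p = 0.996). ENSTGUG00000018747 averaged 9128 CPM (SD 923, n = 7) in the cool birds against 8808 CPM (SD 1184, n = 8) at 35 °C, and its log2 fold change was 0.052 (SE 0.10, edgeR adjusted p = 0.974). The first is testis-enriched, while the second was also abundant in the telencephalon, at 43402 CPM at 27 °C and 41827 CPM at 35 °C.

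The cool testes lay on average farther from one another than the testes at 35 °C. The difference did not pass correction over all genes, which was the planned test. The plan itself was set with earlier results of these data known, so that test was not blind to them. The difference passed in the well-counted genes, a test added after the data were seen and corrected apart from the planned ones. No correction was made over planned and added tests together. Each library's distance from the other birds of its group, the root mean square over genes of its log2 CPM minus the mean of those birds, was 0.562 ± 0.049 at 27 °C (SD, n = 7) and 0.49998 ± 0.048 at 35 °C (SD, n = 8). The 7 cool birds ran from 0.472 (T151) to 0.618 (T142), with T155 at 0.613, T149 at 0.579 and T148 at 0.564. The 8 birds at 35 °C ran from 0.428 (T139) to 0.576 (T157). The ranges overlapped widely: T151 lay below 6 of the 8 warm birds. The exact two-sided permutation p was 0.0311 (adjusted 0.249 over the 8 tests of birds' values). The difference over all tested genes thus did not pass the correction. The smallest p that 7 against 8 birds can give is 0.000311. Each distance rests on the other birds of its group and was not recomputed for each split, so the p-values of distances are approximate. In the 8454 well-counted genes the distances were 0.403 ± 0.038 at 27 °C (SD, n = 7) and 0.343 ± 0.027 at 35 °C (SD, n = 8), and the exact permutation p was 0.00373 (adjusted 0.0258 over 7 tests added after the data were seen). There, 6 of the 7 cool birds exceeded every bird at 35 °C and T151, at 0.340, did not.

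The values are slightly larger in a smaller group, because the mean of the others rests on 6 birds at 27 °C and 7 at 35 °C. With that removed the difference over all genes was 0.053 (exact permutation p = 0.0441). Thinning every library to the smallest total left it at 0.061 (exact permutation p = 0.0171). Neither difference passed the correction over the 8 tests of birds' values. The paired-end minus single-end difference of each bird was centred per gene on its mean over 19 testis libraries, all but T154, T157 and T156. A run difference shared by the birds was thus removed. The remainder, as a root mean square over the well-counted genes, was 0.133 ± 0.010 log2 units at 27 °C (SD, n = 7). At 35 °C it was 0.132 ± 0.017 (SD, n = 8), with an exact permutation p of 0.909. The part of this remainder in the distances was not tested.

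**Figure D2:**
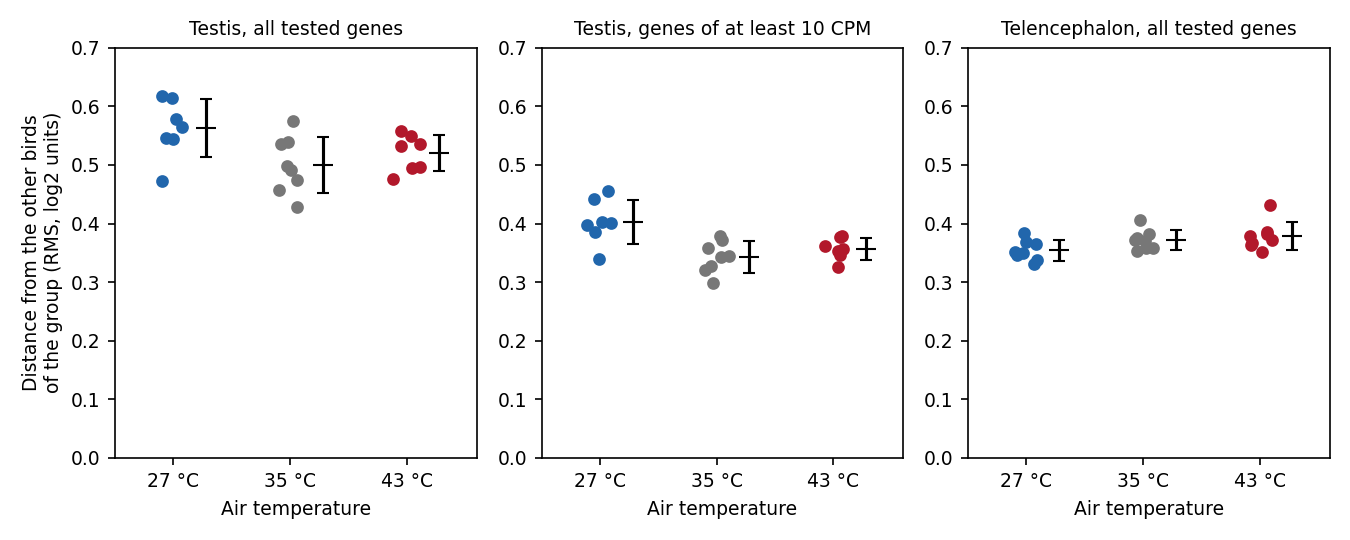
Distance of each library from the other birds of its own group (root mean square over genes, log2 units), by air temperature, for all tested testis genes, testis genes of at least 10 CPM and all tested telencephalon genes. Points are birds (n = 7, 8 and 7 for the testis at 27, 35 and 43 °C and 8 each for the telencephalon) and bars mark mean and SD. In the well-counted testis genes, 6 of 7 points at 27 °C stand above every point at 35 °C.

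The difference in distance rests in part on birds T142 and T155. Leaving cool birds out makes their group smaller, which raises its distances as defined. The values with the effect of group size removed are therefore the comparable ones. With the birds left out and the distance as defined, the difference over all genes was 0.057 without T142 (exact permutation p = 0.0626), 0.061 without T155 (exact permutation p = 0.0333) and 0.061 without both (exact permutation p = 0.0466), against 0.062 with all birds. With the effect of group size removed as well, it was 0.041 without T142, 0.044 without T155 and 0.033 without both (exact permutation p = 0.129, 0.0859 and 0.216), against 0.053 with all birds. None of these differences over all genes passed the correction. In each alternative setting the correction replaced the p of that test alone. The other tests of its family kept their p from the main setting with all birds, although some of these would change as well. In the well-counted genes the difference was 0.058 without T142 and 0.057 without both (adjusted p = 0.0258 for each, exact permutation). With the effect of group size removed it was 0.053 with all birds (adjusted p = 0.0258), 0.045 without T142 (adjusted p = 0.0513) and 0.037 without both (adjusted p = 0.0653, exact permutation), so the call was lost in the last 2 settings. The bird nearest the middle mattered too: without T151 the difference over all genes was 0.088 (adjusted p = 0.0266, exact permutation), and with the effect of group size removed it was 0.069 and did not pass (adjusted p = 0.128).

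In the telencephalon the mean distance was the smaller one at 27 °C. The telencephalon group at 27 °C held the 7 males compared here and 1 more, T143, that has no testis library in the comparison. Their distances were 0.354 ± 0.017 at 27 °C (SD, n = 8) and 0.372 ± 0.016 at 35 °C (SD, n = 8), with an exact permutation p of 0.0527. Over the 7 males with both tissues the mean at 27 °C was 0.357. Whether testis and telencephalon differed in this respect was tested on each bird's testis distance minus its telencephalon distance, which averaged 0.205 over the 7 birds at 27 °C and 0.128 over the 8 at 35 °C. The exact permutation p of that difference was 0.00870, and the adjusted p was 0.0258 over the 7 added tests. It was 0.0503 without T139 at 35 °C, which was the 1 of 15 left-out birds that ended the call. Without both T142 and T155 the difference was 0.083 (adjusted p = 0.0290, exact permutation). With the effect of group size removed the adjusted p was 0.0258 with all birds, 0.0684 without T142 (difference 0.060) and 0.0922 without both (difference 0.055, exact permutation), so that the call was lost without these birds. In all these settings the telencephalon distances were kept as computed from all birds, without scaling. Bird T142 had the highest telencephalon distance among the cool birds too, at 0.384.

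The testes at 43 °C lay in between, at 0.520 ± 0.031 (SD, n = 7). The difference between 27 and 43 °C was 0.042 over all genes (exact permutation p = 0.0845, adjusted p = 0.118) and 0.046 over the well-counted genes (exact permutation p = 0.0111, adjusted p = 0.0258).

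On principal components, which order libraries by the directions of largest variance, the outermost bird at either end of component 1 was a cool one. Component 1 held 13.9% of the variance and component 2 held 10.9%. On component 1 the birds at 27 °C stood at -48.3 (T142), -30.2 (T149), -13.8 (T159), -13.5 (T145), 10.1 (T151), 31.2 (T148) and 37.1 (T155), while the 8 birds at 35 °C ran from -3.18 to 32.2 with a median of 7.28. Absolute deviations from the group median averaged 24.4 at 27 °C and 9.81 at 35 °C, and the exact permutation p was 0.0976 (adjusted 0.390). The difference, 14.6, was 8.60 without T142 (exact permutation p = 0.175), on a component 1 computed anew without that bird. The group means, -3.90 at 27 °C and 11.8 at 35 °C, differed with an exact permutation p of 0.223 (adjusted p = 0.595). Without both T142 and T155 the difference in means turned to the other sign, 8.34 (exact permutation p = 0.497). On component 2, T145 and T159 stood apart at 44.1 and 40.0, against at most 27.1 among the other birds. The direction of largest variance among the 43 °C testes did not separate the spreads: placed on it, the birds deviated from their group median by 8.17 at 27 °C and by 6.81 at 35 °C (exact permutation p = 0.726).

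**Figure D3:**
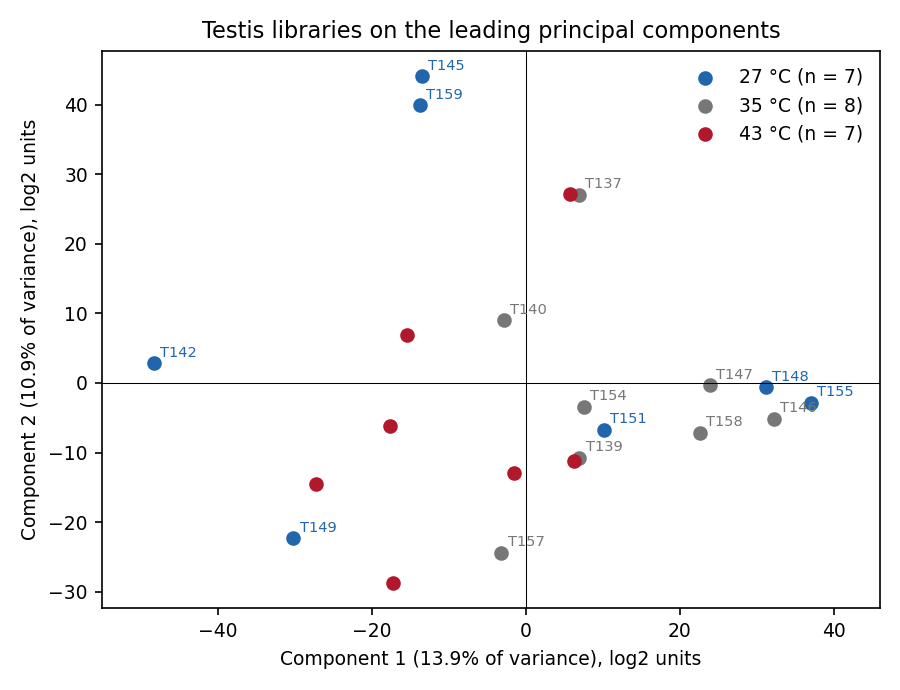
Scores of the 22 testis libraries on components 1 (13.9% of variance) and 2 (10.9%), in log2 units, at 27 °C (blue, n = 7), 35 °C (grey, n = 8) and 43 °C (red, n = 7), with bird names for the compared groups. Blue points reach both ends of component 1, from T142 at -48.3 to T155 at 37.1, and T145 and T159 lie together at the top of component 2.

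Distances between single birds use no group mean, but they come from the same log2 values and add no separate support. The pairs share birds, and no test was made on them. The 21 pairs of cool birds differed by a median of 0.743 log2 units (0.565 to 0.882), the 56 pairs of a cool and a warm bird by 0.689 (0.582 to 0.859) and the 28 pairs of birds at 35 °C by 0.661 (0.544 to 0.764). The farthest of these 105 pairs was T142 and T155. Yet the second closest was also a cool pair, T145 and T159 at 0.565. Within its group T142 was nearest to T149, at 0.665.

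T142 and T155 were extreme in many genes, often at opposite ends. Among the 15 birds T142 was the highest in 11.8% of genes and the lowest in 10.1%, T155 the highest in 9.62% and the lowest in 8.83%, where an equal share is 6.67%. T151 was the highest in 4.34% and the lowest in 3.82%. At 35 °C the share ran from 3.23 to 7.38% for the highest and from 3.49 to 7.38% for the lowest. In 564 genes T142 and T155 held the opposite ends of the 15 values, 317 with T142 lowest and T155 highest and 247 the other way round, against a median of 119 over the 105 pairs of birds and 417 for the next pair, T142 and T148. Private levels were fewer. T142 stood at least 2-fold above each of the other 14 birds in 28 genes and at least 2-fold below in 54, and the largest count of private high genes was 56, in T157 at 35 °C.

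**Figure D4:**
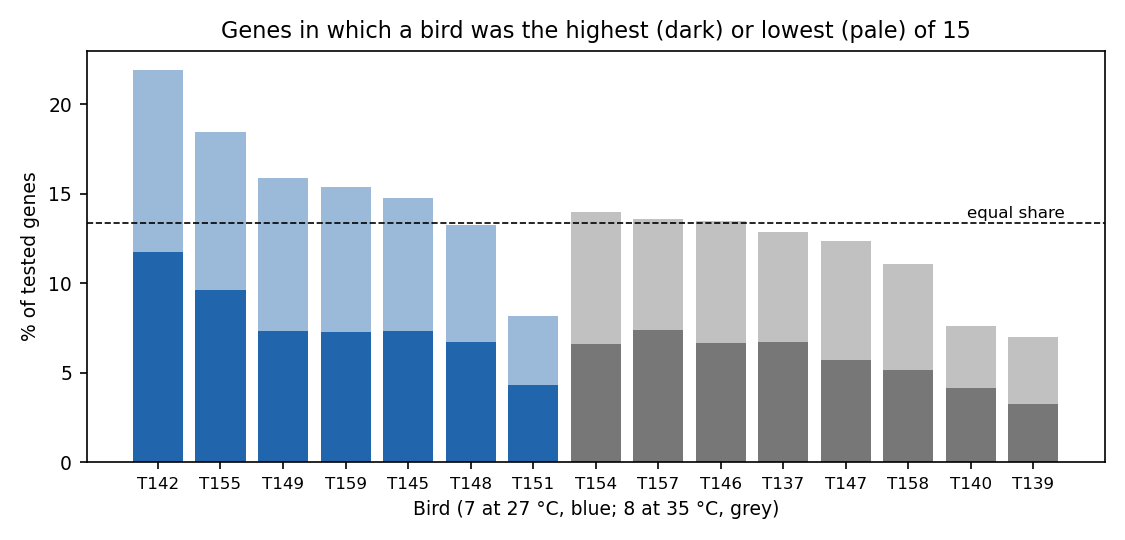
Percentage of the 14149 tested genes in which each bird had the highest (dark) or the lowest (pale) log2 CPM of the 15 birds at 27 °C (blue, 7 birds) and 35 °C (grey, 8 birds), sorted within each group, with the equal share as a dashed line. T142 and T155 reach 21.9 and 18.5%, while T151 at 27 °C, with 8.16%, sits near the lowest grey bars.

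Gene by gene, the SD between birds was larger at 27 °C in 60.4% of the tested genes. Its median was 0.349 log2 units at 27 °C and 0.310 at 35 °C, and the median ratio of 27 over 35 °C was 1.13. Leaving out 1 bird at a time gave this ratio a standard error of 0.083 (jackknife). The genes share the same libraries and are not replicates, so no test was made on the ratio or the share. At 43 °C the median SD was 0.311, and it exceeded the SD at 35 °C in 51.1% of genes. The SD was at least 2 times larger at 27 °C in 1355 genes, and at least 2 times larger at 35 °C in 550. Without T142 the median ratio was 1.09, without T155 it was 1.08, and without both it was 1.05, with a larger SD at 27 °C in 53.7% of genes.

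**Figure D5:**
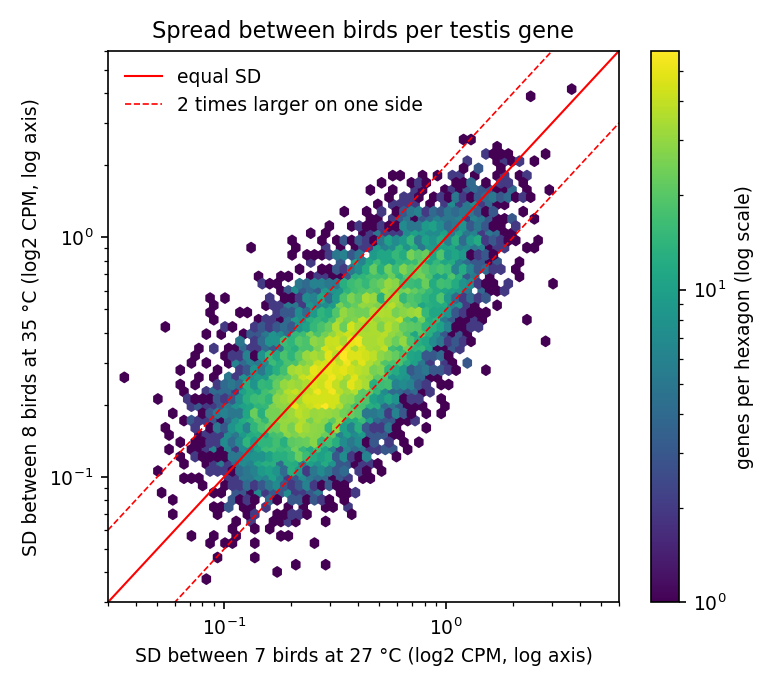
SD of log2 CPM between birds at 27 °C (x, n = 7) and at 35 °C (y, n = 8) for the 14149 tested testis genes, both on log axes, with hexagons coloured by their number of genes on a log scale. The solid line marks equal SDs and the dashed lines a 2-fold ratio, beyond which lie 1355 genes on the 27 °C side and 550 on the 35 °C side.

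No gene was called for a difference in spread. Each gene's absolute deviations from its group mean were compared with limma's moderated test, which called 0 genes (a background of 0%), with a smallest adjusted p of 0.0941. An unadjusted p below 0.05 was reached by 1462 genes (10.3%), of which 1182 were wider at 27 °C (8.35%) and 280 narrower (1.98%). Without T142 it was reached by 1307 genes, of which 1016 were wider. Such a limit gives 5% without any difference only if the test keeps its stated rate, and for absolute deviations that rate is not given here. The count depends on the centre used: with deviations from the group median it was 478, of which 350 were wider at 27 °C. That is fewer than 5% of the tested genes, and the smallest limma adjusted p was then 0.998. The excess over 5% was thus seen with the group mean as centre and not with the median. The SDs were also larger at 27 °C among abundant transcripts. By level, the median SD ratio was 1.07 under 1 CPM (1206 genes), 1.08 at 1 to 10 CPM (4489 genes), 1.15 at 10 to 100 CPM (6184 genes) and 1.21 above 100 CPM (2270 genes). Across genes the SDs of the groups went together, with a Spearman correlation of 0.71 between 27 and 35 °C over 14149 genes that share the libraries.

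The genes with the smallest p for a wider spread were split into separate levels rather than smeared. ENSTGUG00000000501, which is testis-enriched, had 198.9 to 216.3 CPM in T142, T145, T155 and T159 and 102.5 to 105.4 CPM in T148, T149 and T151, against 120.5 to 174.6 CPM in the 8 birds at 35 °C. The birds at 35 °C thus filled the gap between the low and the high cool birds. Mean absolute deviations, scaled for group size, were 0.52 log2 units at 27 °C and 0.12 at 35 °C, a difference of 0.40 ± 0.069 (SE) with a limma adjusted p of 0.0941. ENSTGUG00000000363 had 142.3 to 149.9 CPM in T142, T148 and T155 and 58.1 to 75.9 CPM in the other 4 cool birds, against 95.7 to 164.3 CPM at 35 °C, a difference of 0.42 ± 0.080 (SE, limma adjusted p = 0.105). Birds T142 and T155 were in the high set of both genes, and the other members of the sets differed. A gene split into 2 even levels gives nearly equal absolute deviations, which this test favours.

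On the narrower side stood ENSTGUG00000007948, at 12.6 to 16.6 CPM at 27 °C (median 14.2) and 10.4 to 20.1 CPM at 35 °C (median 14.6), a difference of -0.24 ± 0.054 (SE, limma adjusted p = 0.137). ENSTGUG00000007686 stood at 11.5 to 18.96 CPM at 27 °C (median 15.7) and 3.62 to 19.1 CPM at 35 °C (median 13.2), a difference of -0.61 ± 0.15 (SE, limma adjusted p = 0.186). Its wide range at 35 °C came from 3 birds, T137, T147 and T139, at 3.62, 5.12 and 6.51 CPM.

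Testis-enriched genes, at least 4-fold higher in testis than in telencephalon in the 43 °C birds and at least 1 CPM there, numbered 2859, of which 2843 passed the filter on low counts. Of those, 296 (10.4%) were wider at 27 °C at an unadjusted p under 0.05 and 44 narrower, against 8.35% wider over all genes, and their median SD ratio was 1.17 against 1.13. For the 1982 telencephalon-enriched genes that passed, of 2561, the share was 7.42% wider, with 42 genes narrower, with a median ratio of 1.09. In the mean, 62 testis-enriched genes were higher and 81 lower at an unadjusted p under 0.05 (5.03%, against 4.33% over all genes), with a median log2 fold change of -0.02 beside 0.00 over all genes.

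Summed over each library, testis-enriched genes held 426180 CPM (SD 44821, n = 7) at 27 °C against 435669 CPM (SD 20917, n = 8) at 35 °C, with an exact permutation p of 0.597. The cool birds fell into a low pair, T159 at 356971 and T145 at 375302 CPM, and 5 birds at 413107 to 462578 CPM, while those at 35 °C ran from 397106 to 456164 CPM. The pair low in this sum is the pair that lay close together on component 2, T145 and T159. Without T159 the difference in means turned to 1180 CPM above 35 °C (exact permutation p = 0.946). Telencephalon-enriched genes summed to 27724 CPM (SD 1009, n = 7) at 27 °C against 27339 CPM (SD 1115, n = 8) at 35 °C, with an exact permutation p of 0.493. What the sums share with the spread was not tested.

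Among genes of at least 10 CPM the largest loadings on the side of T155 belonged to ENSTGUG00000003827, at 2.34 CPM in T142 and 29.7 CPM in T155, and ENSTGUG00000000591, at 3.11 to 24.6 CPM across the cool birds and 7.12 to 33.2 CPM at 35 °C. On the side of T142 they belonged to ENSTGUG00000013287 and ENSTGUG00000017061. ENSTGUG00000013287 ran from 0.108 to 9.27 CPM at 27 °C (median 0.278) and from 0.0945 to 227.7 CPM at 35 °C (median 0.876), where T157 and T139 stood at 227.7 and 83.5 CPM and no other bird of that group above 1.46 CPM. ENSTGUG00000017061 ran from 1.41 to 46.1 CPM at 27 °C, highest in T142, and from 1.62 to 28.5 CPM at 35 °C, highest in T137. Both are testis-enriched, as is ENSTGUG00000003827. The 500 genes with the largest loadings at either end had median levels of 2.45 and 2.52 CPM, against 17.1 CPM over all tested genes.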

How the data were processed

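Libraries for sequencing were prepared with the TruSeq Stranded mRNA kit, as the labels' protocols state. The authors deposited raw counts per gene in 1 table per tissue. In the testis table every bird has a paired-end and a single-end column of whole numbers, so these deposited values are plain counts rather than estimated counts, and they were summed per bird. Tools listed in the submitters' processing notes are featureCounts 1.6.4, HISAT2 2.1.0, Trimmomatic 0.36 and CASAVA. Build, annotation and strand setting were not given in the sources used here, and where genes overlap or have close copies a read may be counted for either.

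Groups came from the titles, with the bird as replicate. Genes were kept by filterByExpr (minimum count 10, minimum total 15), normalised with TMM, and the robust quasi-likelihood test of edgeR 4.0.16 in R 4.3.3 was fitted over all 22 testis libraries. log2 CPM used a prior count of 2. Spread was tested with limma 3.58.1 on absolute deviations from group means, scaled for group size. Values per bird were compared by two-sided permutation, called exact because every split of the finished values was counted. Benjamini-Hochberg adjustment ran over 8 planned tests and, apart from these, over 7 added after the data were seen. For an alternative setting only the p of the test in question was replaced, and the others kept their main values. Distances and deviations from a group median were not recomputed for each split. They depend on the other birds of the group, so their permutation p-values are approximate. Tissue enrichment was set in the 43 °C libraries, which neither compared group contains. Both fits were tested on simulated counts. Alternatives used DESeq2 1.42.0, limma voom, other filters, single runs, thinned counts and left-out birds.

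Genes are named by a rule set with earlier results of these data known, as were the groups and tests: the 2 smallest p per direction for mean and for spread, the 2 largest loadings per end of component 1, each among genes of at least 10 CPM, and the 2 most counted genes. Planned lists of heat shock, cold-inducible, steroidogenic, clock and cell marker genes need symbols and were not used here.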

Additional observations from a re-analysis of the deposited data

Results flagged for a closer look

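In 4 of 52 groups of birds tested, 1 bird stood apart from the rest, where 1 in 20 would give 2.6. All 4 were in genes picked for their values in these same birds. The rate of 1 in 20 does not hold for such genes, and the flags are given as values only. In bird T157 at 35 °C, ENSTGUG00000001411 had 85.4 CPM, beside 140.7 to 181.3 CPM in the other 7. In the same bird ENSTGUG00000013287 had 227.7 CPM, beside at most 83.5 CPM in the other 7. ENSTGUG00000017061 was at 46.1 CPM in T142 at 27 °C, against at most 14.9 CPM in the other 6, and at 28.5 CPM in T137 at 35 °C, against at most 9.44 CPM in the other 7.

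The change in distance between birds differed between tissues: testis distance minus telencephalon distance of the same bird was larger by 0.077 log2 units at 27 °C than at 35 °C (exact permutation p = 0.00870, adjusted p = 0.0258 over 7 tests). The call was lost without T139 (adjusted p = 0.0503, exact permutation). With the effect of group size removed it was also lost without T142, and without T142 and T155.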

How the results depend on the processing

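No paired analysis was possible because the birds at 27 and 35 °C share no number. No gene was called for a mean shift under any setting tried. The count at an unadjusted p under 0.05 moved from 612 to 357 with the stricter filter (at least 10 CPM, which tests fewer genes) and to between 485 and 1062 without 1 testis library, the highest without T155.

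Calls for spread changed with small choices. The 0 genes became 3 with the stricter filter (ENSTGUG00000000501, ENSTGUG00000000363 and ENSTGUG00000006697), 2 with the single-end column, 2 after thinning and 1 without birds T154 and T157, whose paired-end column was the deeper one, and 0 to 15 without 1 bird. The 1462 genes at an unadjusted p under 0.05 became 478 with deviations from the group median, fewer than 5% of those tested. The median SD ratio was 1.05 without T142 and T155 and 1.08 to 1.16 without 1 bird.

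The difference in profile distance over all genes ran from 0.045 to 0.088 without 1 bird. With the stricter filter it was 0.060 and passed its correction (adjusted p = 0.0373, exact permutation). That filter sets the same limit of 10 CPM as the well-counted genes, so it adds no separate result. Against 43 °C the difference in profile distance was 0.046 with the stricter filter (adjusted p = 0.0214, exact permutation). It was 0.055 without T151 with the distance scaled for group size, and 0.037 to 0.067 without 1 bird. The difference between tissues ran from 0.060 to 0.101 without 1 bird and was 0.055 without T142 and T155 with the scaling. Over the well-counted genes the difference in distance, not scaled for group size, ran from 0.049 to 0.078 without 1 bird. It kept its call in each, with the other added tests held at their p from all birds. With the scaling, calls were lost without T142 for the well-counted genes (0.045) and for the tissues (0.060), and without T142 and T155 for the well-counted genes (0.037). Component 1 was computed anew in each setting. The difference in position on it was 8.34 without T142 and T155, and ran from -20.8 to -5.94 without 1 bird. The sum over testis-enriched genes ran from -15519 to 1180 CPM without 1 bird. The causes were not tested. ENSTGUG00000000501 or ENSTGUG00000000363 passed the spread threshold in 10 of the alternatives' results for them and did not in the rest. With deviations from the group median the limma adjusted p was 0.998 for each of these genes. The other alternatives kept their direction and side of the threshold. Counting error limits genes under 1 CPM most.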

Other observations

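Some transcripts were near absent in some testes and abundant in others at every temperature. In 70 tested genes the highest of the 22 testes had at least 10 CPM and at least 50 times the lowest, with the lowest taken as no less than 3 counts. Birds with at least 10 CPM were found at 27 °C for 40 of these genes, at 35 °C for 42 and at 43 °C for 46, and at all 3 temperatures for 16. In 24 of the 70 a single bird reached 10 CPM, and in 10 such birds were seen at 27 °C alone. Of the 70, 34 were testis-enriched, 16 telencephalon-enriched and 20 neither. ENSTGUG00000013287 was the widest of those named, from 0.0840 CPM in T136 to 358.0 CPM in T152, both at 43 °C. These genes were selected for their range, and no test was made on them.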
